A study of Mus musculus with 2 samples.

Results

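In pancreatic islets of 2-week-old mice, 29 genes carried 10 or more sites of m6A immunoprecipitation each, 387 sites in all. Among them were genes of cytoskeletal linkers, centrosome scaffolds, myosin heavy chains, collagen IV chains, chromatin remodellers, trafficking and signalling proteins, a DNA methyltransferase and a translation factor. The members were chosen by counting the rows of the authors' list of methylated mRNA sites for each gene name and keeping every row of a gene with 10 or more. They are 0.585% of the 4959 genes with a site and hold 4.31% of the 8987 sites. Because the rule itself counted sites, the number of sites per gene is a description and not a finding, and so is every value from the same comparison of immunoprecipitate with input.

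The study sequenced 1 m6A immunoprecipitate library and 1 input library from islets of the mouse strain 129sv at 2 weeks of age. No treatment, genotype or number of animals is given in the labels, and nothing else distinguishes the 2 libraries than the pull-down with a polyclonal antibody against N6-methyladenosine. With 1 library on each side there are no replicates, so no error, no test and no p-value of its own goes with any value. For each site the authors' caller gave a fold enrichment, a linear ratio of immunoprecipitate over the background it expects from the input. It also gave a score, minus 10 times log10 of its p, and a false discovery rate (FDR) in percent. Read depth is unknown here, and so is the input level of each gene. Among markers of the labelled tissue, the granule proteins Chga and Chgb and the beta cell factor Mafa had sites, while Ins1, Ins2, Gcg and Sst had none in the list. In all, 3 of 9 beta cell, 0 of 3 other endocrine, 1 of 4 acinar, 4 of 4 endothelial, 0 of 2 leukocyte and 1 of 2 fibroblast markers had a site. From which cells of the islet preparation the RNA of a member came was not analysed, and more cells of a type cannot be told apart from more RNA per cell.

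m6A is laid down on adenosines of nascent RNA by a nuclear methyltransferase complex and is read by proteins that act on splicing, export, translation and decay. In mammalian messenger RNA it is known to be dense in long internal exons and around stop codons. Antibodies against m6A also bind m6Am, a related mark next to the cap of many transcripts.

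A start of the transcript was the place where sequence could be set beside a site. Of the 26 members in the RefSeq promoter table, 13 had 1 site that overlapped the window from 250 bases before to 50 bases after an annotated start. The other 3 members are not in that table and could not be counted. On 10 of the 13, the outer edge of the site was exactly the first annotated base. How often the overlap or the exact edge occurs on the other genes of the list was not counted. Neither count is therefore a result about the members. Sequence was at hand only around annotated starts, and the 5 of these 10 with the largest fold are shown. Each has 30 bases before the start in lower case and the first 30 transcribed bases, all inside the site, in capitals. They are written 5′ to 3′ on the strand of the gene, from RefSeq's table for GRCm38.p6.
Kif13a, chr13:46929689-46929748, minus strand, fold 17.43: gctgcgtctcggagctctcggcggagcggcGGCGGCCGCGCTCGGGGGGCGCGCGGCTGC
Cdc42bpb, chr12:111377689-111377748, minus strand, fold 12.39: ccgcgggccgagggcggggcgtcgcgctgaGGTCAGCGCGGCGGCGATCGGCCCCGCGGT
Syne2, chr12:75818288-75818347, plus strand, fold 11.17: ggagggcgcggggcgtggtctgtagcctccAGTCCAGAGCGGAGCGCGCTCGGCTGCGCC
Rufy1, chr11:50431096-50431155, minus strand, fold 9.8: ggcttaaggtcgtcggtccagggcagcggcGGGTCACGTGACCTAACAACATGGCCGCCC
Cntln, chr4:84884279-84884338, plus strand, fold 9.26: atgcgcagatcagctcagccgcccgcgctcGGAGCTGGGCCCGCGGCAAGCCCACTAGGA

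The other 5 sites that began exactly at the annotated start lay on Tnrc18 (fold 8.57), Myh9 (7.01), Ktn1 (5.3), Smarcc1 (4.62) and Col4a1 (4.6). An annotated start need not be the 5′ end of the gene span. The site of Ktn1 was centred at 17.9% of its span and that of Tnrc18 at 6.3%. The site of Akap9 reached 8 bases and that of Eif4g3 109 bases upstream of the annotated start, and that of Ppfia1 began 30 bases downstream of it. Of the 13, 4 had an FDR below 100%, and their median length was 311 bases against 164 bases for all member sites. The first annotated base was A on 3 of the 10 exact starts, G on 5 and T on 2. Over all 32851 RefSeq windows, A stood there in 34.4% and G in 35.6%. The letters GGAC, a frequent context of m6A, or GTCC, the same letters on the opposite strand, occurred in the first 50 transcribed bases of 4 of the 13, and in 33.3% of all windows. GGAC alone, on the strand of the gene, was found in 3 of the 13 and in 18.9% of all windows.

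Member sites were shorter than the other sites and had somewhat higher scores, at nearly the same fold. Their fold ran from 2.52 to 34.63 with a median of 7.63 and quartiles of 5.505 and 10.56, against a median of 7.11 for the 8600 sites on genes with fewer than 10. A fold of at least 5 was reached by 319 of the 387, or 82.4%, where the share over all sites was 82.7%, so the members stand at the background there. Their median length was 164 bases, with quartiles of 121.5 and 219, against 215 bases, with quartiles of 140 and 465, for the other sites. Sites of over 1000 bases made up 1.29% of the member sites and 10.4% of the others. The median score was 194.94 against 130.58. A score of at least 100, a p of at most 1e-10, was reached by 283 member sites (73.1%), where the share over all sites was 62.1%.

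An FDR below 100% was given to 139 member sites (35.9%), and over all sites to 25.7%. The lowest value was 27.16%, and 0 sites of the whole list lay below 5%. Among the members this rate followed the score closely. All 139 sites with a score of 289.51 or more had an FDR below 100%, and the highest score at an FDR of 100% was 285.05. A score of 3100 or more was given to 7 member sites (1.81%) on 4 genes, where the share over all sites was 1.37%. These were 4 sites of Myh9 and 1 each of Dst, Col4a1 and Smarca4. All 7 had the same score of 3100 and the same FDR of 27.16%, so neither value ranks them.

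**Figure D1:**
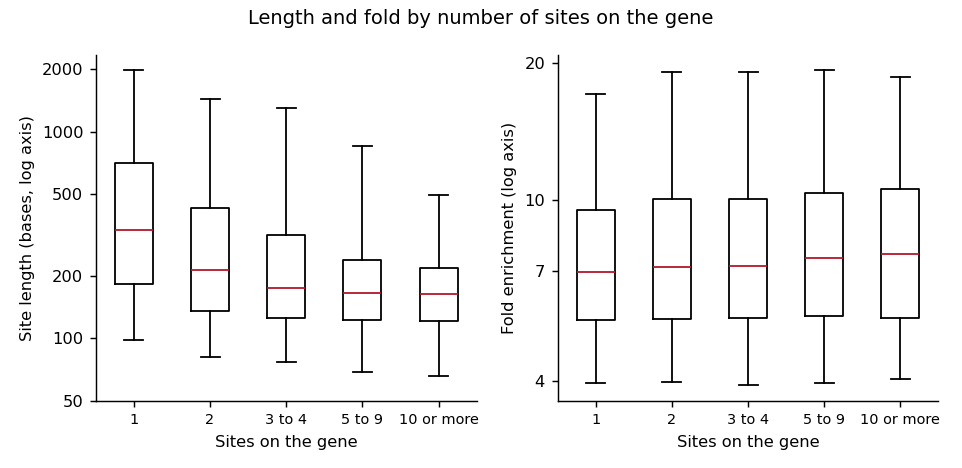
Site length in bases (left) and fold enrichment (right), on log axes, for sites grouped by how many sites their gene has. Boxes give quartiles and the median, whiskers the 5th and 95th percentiles; the median length falls from 333 bases on genes with 1 site to 164 bases on genes with 10 or more, while the median fold lies between 6.94 and 7.63.

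The change in length was graded over the groups. Genes with 1 site had a median site length of 333 bases, those with 2 sites 214.5, those with 3 to 4 sites 176, those with 5 to 9 sites 166 and the members 164. The median score rose over the same groups from 116.39 to 194.94, and the share with an FDR below 100% from 21.9% to 35.9%. Among genes with a span over 80 kb alone, the median length was 262.5 bases with 1 site, 198 with 2, 175 with 3 to 4, and 168 both with 5 to 9 and in the members. The median score there was 102.52 with 1 site and 192.8 in the members. The part of the input level in these differences was not tested.

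Folds differed widely within a member. The median fold of a gene lay between 5.99 (Kif13a) and 14.875 (Myh14), and the strongest site of a gene had 2.58 to 8.61 times the fold of its weakest. The ratio was 8.61 in Macf1 and 2.58 in Cntln. Across the 387 sites, which share a library and partly a transcript, fold and length were almost unrelated (Spearman correlation 0.06), and fold and score went together (Spearman correlation 0.67). Over all sites of the list these were 0.04 and 0.67, so the members stood at the whole list here.

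**Figure D2:**
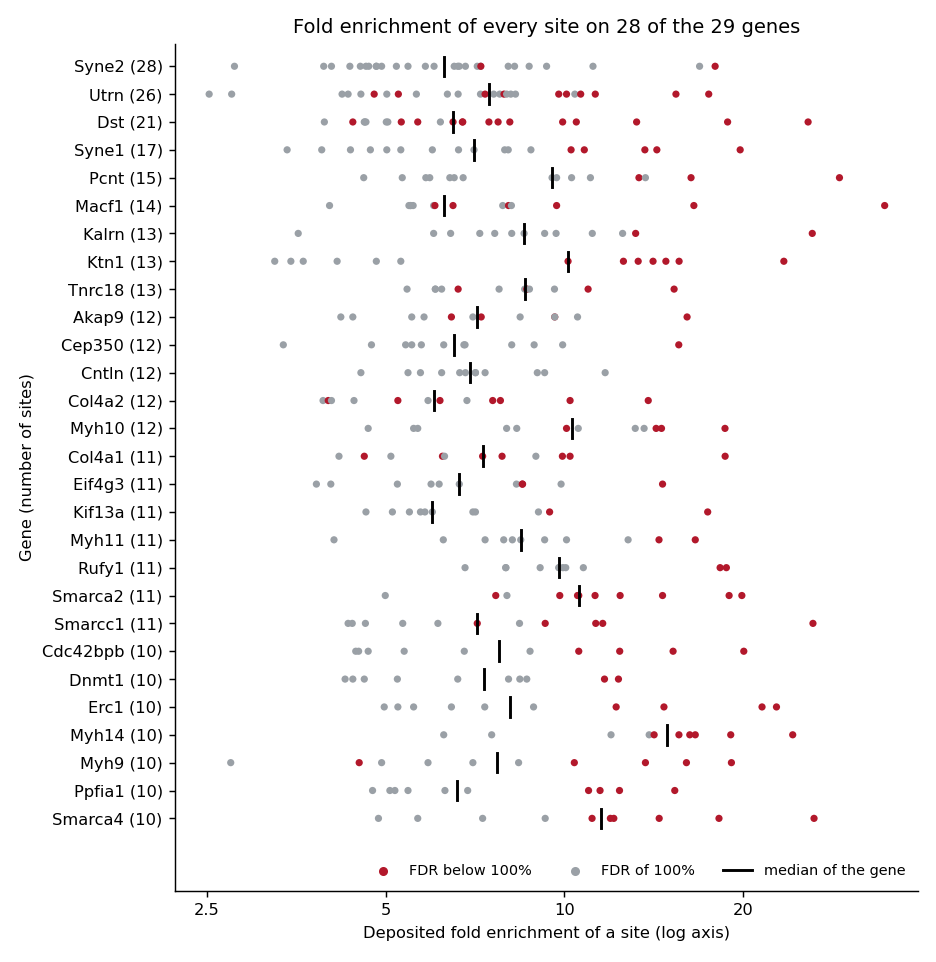
Each point is a site of one of 28 member genes at its deposited fold enrichment, on a log axis. Red points have an FDR below 100%, grey points an FDR of 100%, and the black line is the median of the gene; medians lie between 5.99 and 14.875, and Macf1 has the farthest single site, at 34.63.

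The giant linkers that tie the nucleus, the membrane and the filament systems together held 5 of the 7 members with the most sites. Syne2 and Syne1 encode nesprins, spectrin repeat proteins of the outer nuclear envelope that connect the nucleus to the cytoskeleton. Syne2 had 28 sites of 102 to 584 bases over 292.6 kb of chromosome 12, with folds from 2.78 to 17.94 and a median of 6.275. Only 2 of its 28 sites had an FDR below 100%, and its highest score was 358.54. Its strongest site covered 219 bases at positions 75973277 to 75973495, close to the middle of the gene, and had a score of 327.34 and an FDR of 91.75%. Syne1 had 17 sites of 13 to 235 bases over 530.5 kb of chromosome 10, with folds from 3.41 to 19.77 and a median of 7.04, and 5 of them had an FDR below 100%. Its strongest site lay at 5168687 to 5168878, at 72% of the gene, with a score of 501.35 and an FDR of 74.1%.

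Utrn encodes utrophin, the relative of dystrophin that links actin to the cell membrane. It had 26 sites of 66 to 414 bases with folds from 2.52 to 17.5 and a median of 7.475, and 10 had an FDR below 100%. Of these 26, 18 fell within 1 stretch of 20% of its 487.7 kb span, the stretch being placed, here and for the genes that follow, where it held the most sites. The strongest site lay at chromosome 10, 12658496 to 12658671, with a score of 420.22 and an FDR of 80.85%. Its first site from the 5′ end was centred at 25.8% of the gene.

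Dst and Macf1 encode plakins, which cross-link microtubules and actin, and in the case of Dst also intermediate filaments. Dst had 21 sites of 62 to 2703 bases with folds from 3.94 to 25.73 and a median of 6.49, and 14 had an FDR below 100%, the most of any member. The 21 were centred between 44.5% and 96.5% of its 400.8 kb span. Its strongest site, of 189 bases at chromosome 1, 34290359 to 34290547, had a score of 3100 and an FDR of 27.16%. The longest site of all members, of 2703 bases with a fold of 7.73, was on Dst too, at 34177796 to 34180498. Macf1 had 14 sites of 108 to 496 bases with folds from 4.02 to 34.63 and a median of 6.27, and 6 had an FDR below 100%. Its strongest site had the largest fold of all member sites and lay apart from the rest, at chromosome 4, 123664466 to 123664780 (6.9% of the gene, score 1273.55, FDR 49.65%). The other 13 sites of Macf1 had folds of at most 16.52 and followed after a gap of 158 kb. The strongest site and that of 16.52 were assigned to transcript records outside RefSeq, and the others to a single RefSeq record.

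Among 14 linkers and ankyrins of the list used here, 12 had a site, 5 of them 10 or more and 4 others 5 to 9 (Dsp and Sptbn1 with 8 each, Ank3 with 6, Sptan1 with 5). Dmd and Syne3 had no site in the list.

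Scaffolds of the centrosome made up 4 members with 12 to 15 sites each. Pcnt encodes pericentrin, which gathers the material that nucleates microtubules. It had 15 sites of 163 to 846 bases over 91.7 kb, with folds from 4.59 to 29.06 and a median of 9.53, and 3 had an FDR below 100%. Its strongest site lay at chromosome 10, 76408698 to 76408910, at 37.2% of the gene, with a score of 937.98 and an FDR of 59.67%. Akap9, an anchor of protein kinase A at the Golgi and the centrosome, had 12 sites of 86 to 1044 bases with folds from 4.2 to 16.09 and a median of 7.125, and 4 had an FDR below 100%. Its strongest site lay at chromosome 5, 4060282 to 4060495 (score 1509.83, FDR 44.64%). Its longest, of 1044 bases, had the higher score of 1733.14 at a fold of 7.24.

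Cep350, a centrosomal protein that binds microtubules, had 12 sites of 86 to 1964 bases with folds from 3.36 to 15.58 and a median of 6.515, and 1 had an FDR below 100%. That was its strongest, at chromosome 1, 155972849 to 155973255, with a score of 445.09 and an FDR of 78.41%. Cntln encodes centlein, also of the centrosome, and had 12 sites of 92 to 533 bases with folds from 4.54 to 11.71 and a median of 6.945. It was the member with the weakest top site (chromosome 4, 85004923 to 85005044, score 206.04), and 0 of its 12 sites had an FDR below 100%. Of the 12 centrosome and cilium scaffolds in the list used here, 10 had a site, 3 of them 10 or more. Cep290 had 8, Cenpf, Cep250 and Golgb1 had 6 each and Golga4 had 5, with a fold of up to 30.58.

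The class of myosins that contract actin in muscle and other cells gave 4 members, and these were the 4 genes of the Myh series with any site. Myh9, Myh10 and Myh14 encode the heavy chains of non-muscle myosin, and Myh11 that of smooth muscle. Myh9 had 10 sites of 28 to 727 bases with folds from 2.74 to 19.11 and a median of 7.69. Its 4 sites with a score of 3100 and an FDR of 27.16% followed each other toward the 3′ end, at 82.1%, 86.1%, 89.8% and 95.9% of the gene, with folds of 13.69, 10.39, 19.11 and 16.05. The strongest was at chromosome 15, 77768792 to 77769040. The site at the start of Myh9 had a fold of 7.01, a score of 129.76 and an FDR of 100%.

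Myh10 had 12 sites of 109 to 376 bases with folds from 4.67 to 18.64 and a median of 10.315, and 4 had an FDR below 100%. Its strongest site lay at chromosome 11, 68787338 to 68787544 (score 838.41, FDR 62.64%). Of the 12, 10 fell within a stretch of 20% of the gene, the highest share of the members, and 11 lay between 74.9% and 97.1%. Myh14 had the highest median fold of the members, 14.875, with 10 sites from 6.26 to 24.24, all between 61.6% and 88.2% of the gene. Its strongest site lay at chromosome 7, 44629857 to 44630063 (score 1574.11, FDR 44.29%). Myh11 had 11 sites from 4.09 to 16.61 with a median of 8.44, and 9 of the 11 fell within 20% of its span.

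Part of the site lengths recurred on these 4 paralogs. A length of 207 bases was found on all 4 myosins, on 7 sites with folds from 5.66 to 24.24. A length of 213 bases was found on all 4, on 8 sites with folds from 8.17 to 16.61, and a length of 249 bases on all 4, on 4 sites with folds from 7.9 to 19.11. Pooled over genes of unlike fold, these 19 sites had a median fold of 14.27, against 7.765 for the other 24 sites. The ranges overlapped within each gene. They were 10.39 to 19.11 against 2.74 to 16.05 in Myh9, and 5.66 to 18.64 against 4.67 to 13.16 in Myh10. In Myh14 they were 13.89 to 24.24 against 6.26 to 15.59. In Myh11 the folds of these lengths were 7.9, 8.17, 8.44, 14.43 and 16.61, and its other sites had 4.09 to 12.8. Sites of a gene are not replicates. In all, 29 of the 43 sites had a length that occurred on at least 2 of the myosins, and 14 had a length found on 1. The lengths are not confined to myosins, since the whole list holds 33 sites of 207 bases, 40 of 213 and 20 of 249. The 4 myosins hold 7, 8 and 4 of these, and 43 of all 8987 sites. These lengths were picked out because all 4 genes carried them.

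In Myh10 the lengths 207, 138, 213, 145, 207, 249 and 213 occurred in this order from 5′ to 3′, with a site of 172 bases between 138 and 213. The same 7 occurred in this order in Myh11 when it was read from its higher coordinate. Myh10 and Myh14 shared 6 lengths in order, 207, 213, 207, 249, 213 and 162, and Myh10 and Myh9 shared 4, 161, 207, 213 and 249. As a share of each list, the 7 lengths are 58.3% of the sites of Myh10 and 63.6% of those of Myh11.

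**Figure D3:**
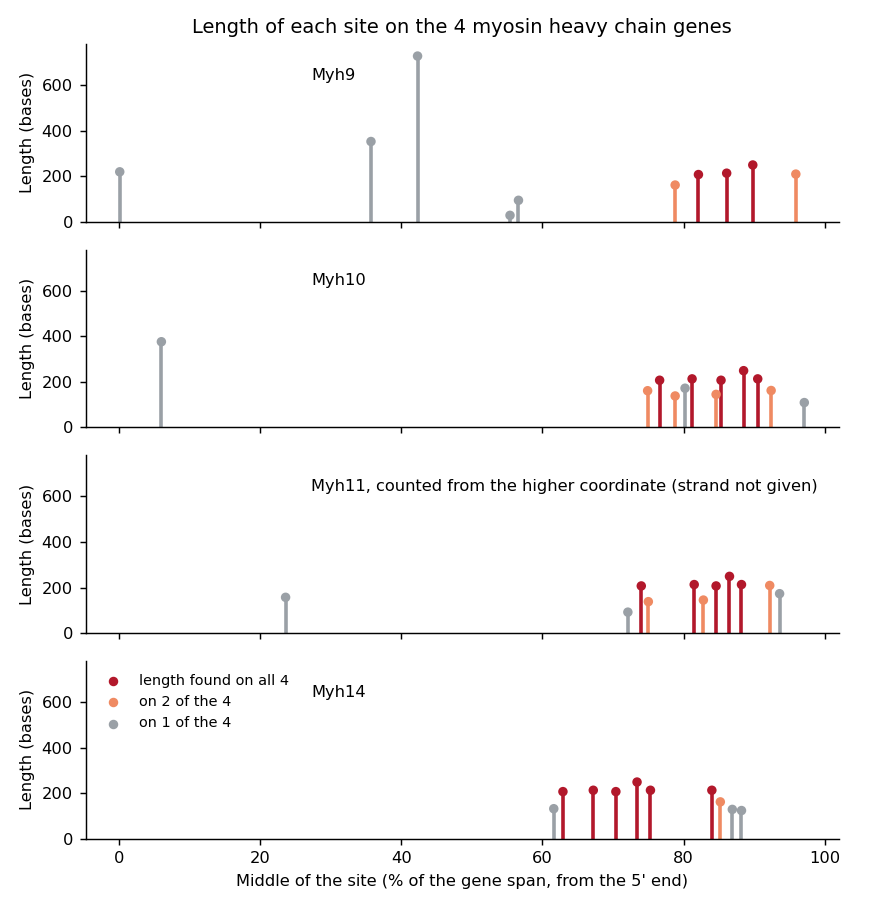
Length in bases of each site (bar height) against the position of its middle, as a percentage of the gene span from the 5′ end, on the 4 myosin heavy chain genes. Myh11 is counted from its higher coordinate; sites of 207, 213 and 249 bases (red) recur on all 4 genes in the last 40% of the span.

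Many pairs of members shared a length, and few shared 4 or more. Of the 406 pairs of member genes, 233 shared no site length, 125 shared 1, 23 shared 2, 14 shared 3 and 11 (2.71%) shared 4 or more. Of these 11 pairs, 5 joined myosins. Dst and Macf1 shared 6 lengths, and 5 of them kept their order from 5′ to 3′: 108, 242, 232, 227 and 198 bases. The 6 are 28.6% of the sites of Dst and 42.9% of those of Macf1. The remodelling ATPases Smarca2 and Smarca4 shared 4 lengths in order, 174, 174, 131 and 228 bases. The other 4 pairs were Syne2 with Dst, Erc1 and Utrn, and Utrn with Dst, with 4 shared lengths each. Order was not confined to the paralogs. All 4 lengths shared by Syne2 and Utrn kept their order from 5′ to 3′, as did 3 of the 4 shared by Syne2 and Erc1. Pcnt shared 3 lengths with each of Myh10, Myh11 and Myh14, in order by coordinate. The order of a pair was taken in the direction, rising or opposite, that kept more lengths. How well reads tell these paralogs apart was not tested, and exon borders were not used here.

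A length divisible by 3 was found for 194 of the 387 member sites, or 50.1%, against 37.8% of the sites on genes with fewer than 10. The share was 36.2% on genes with 1 site and 40.8% on genes with 5 to 9. Without the 4 myosins it was 48.8% of the member sites.

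The 2 chains of collagen IV that form the common network of basement membranes, Col4a1 and Col4a2, lie head to head on chromosome 8, with spans that overlap at their starts (11198423 to 11312889 and 11312805 to 11449287). Col4a1 had 11 sites with folds from 4.17 to 18.65 and a median of 7.28, and Col4a2 had 12 with folds from 3.92 to 13.84 and a median of 6.03. On each gene 7 sites had an FDR below 100%. Their sites were short, with medians of 87 and 121 bases. The strongest site of Col4a1 covered 54 bases at 11238998 to 11239051, with a score of 3100. That of Col4a2 covered 135 bases at 11398662 to 11398796, with a score of 2125.92 and an FDR of 38.73%. On these chains 8 of 11 and 8 of 12 sites fell within 20% of the span. Col4a3, Col4a4, Col4a5 and Col4a6 had no site in the list.

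Among the proteins that act on chromatin, Smarca2 and Smarca4 are the alternative ATPases of BAF chromatin remodelling complexes. Smarca4 had 10 sites of 122 to 405 bases with folds from 4.86 to 26.33 and a median of 11.54, and 6 had an FDR below 100%. Smarca2 had 11 sites of 127 to 462 bases with folds from 4.99 to 19.9 and a median of 10.57, and 9 had an FDR below 100%. On each gene the strongest site came right after the 2 sites of 174 bases, at 30% of Smarca4 (chromosome 9, 21642425 to 21642592, score 3100, FDR 27.16%) and at 28.5% of Smarca2 (chromosome 19, 26654341 to 26654511, score 1170.34, FDR 51.6%). Smarcc1, a core subunit of the same complexes, had 11 sites with folds from 4.32 to 26.22 and a median of 7.13. Smarcc2 had 3 sites.

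Dnmt1, the DNA methyltransferase that copies methylation after replication, had 10 sites packed into 52.7 kb. Its folds ran from 4.27 to 12.33 with a median of 7.33, 2 sites had an FDR below 100%, and the sites were 41 to 232 bases long. Their median length of 80.5 bases was the shortest of the members. The strongest lay at chromosome 9, 20919840 to 20919987, with a score of 399.87 and an FDR of 83.56%. Tnrc18, annotated in the list as binding chromatin, had 13 sites with folds from 5.43 to 15.3 and the largest median length, 255 bases. Of 20 remodelling ATPases and BAF partners in the list used here, 19 had a site, 2 of them 10 or more. Bptf and Chd2 had 7 each, and Arid2 had none. Among 12 large histone methyltransferases, 10 had a site and 0 had 10 or more, with Kmt2c the highest at 6.

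Trafficking and signalling members ranged widely in size. Kalrn encodes kalirin, an exchange factor that activates small GTPases, and spans 604.2 kb. Its 13 sites of 105 to 513 bases, 2.15 per 100 kb, were the sparsest of the members, with folds from 3.56 to 26.15, a median of 8.55 and an FDR below 100% for 2. The strongest lay at chromosome 16, 34203861 to 34203979 (score 564.46, FDR 68.95%). Its relative Trio had 9 sites and lay just outside the rule.

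Rufy1, a protein of early endosomes, had the most sites per span, 26.2 per 100 kb, with 11 sites of 49 to 342 bases on 42 kb. Its folds ran from 6.8, the highest minimum of the members, to 18.74, with a median of 9.8, and 2 sites had an FDR below 100%. The strongest lay at chromosome 11, 50397644 to 50397773 (score 599.42, FDR 67.72%).

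Ktn1 encodes kinectin, a kinesin-binding protein of the endoplasmic reticulum. It had 13 sites with folds from 3.25 to 23.42 and a median of 10.14. The kinesin Kif13a had 11 sites from 4.63 to 17.43, and its strongest was the site at its start. Eif4g3, a scaffold of translation initiation, had 11 from 3.82 to 14.63. Its relative Eif4g1, which is not a member, had 2.

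The presynaptic scaffolds Erc1 and Ppfia1, which also organise secretion sites in other cells, had 10 sites each, with folds from 4.97 to 22.76 and from 4.75 to 15.34. On each of these scaffolds 8 of the 10 sites fell within 20% of the span. Cdc42bpb, a kinase downstream of Cdc42, had 10 sites with folds from 4.45 to 20.05. Paralogs outside the rule, which have fewer than 10 sites by construction, included Kif13b with 2, Erc2 with 6, Ppfia3 with 2 and Cdc42bpa with 2.

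In 4 lists of very large proteins no gene had 10 sites, the histone methyltransferases above and the 3 that follow. Of 14 large ubiquitin ligases, 11 had a site, with Ubr4 the highest at 7. Of the 6 genes of the PI3K-like kinases and Trrap, 5 had a site, with Mtor at 7, and of the 4 genes of the Vps13 family 3 had a site, with Vps13d at 5. Of 11 dynein heavy chains and myosins in the list used here, 8 had a site, Myh10 and Myh9 being members and Dync1h1 following with 8. Of 18 large exchange factors and trafficking proteins, 15 had a site, and Kalrn was the only member. Over the 9 lists, 93 of 111 genes had a site and 13 had 10 or more, beside 0.585% of all genes with a site. The lists were drawn up with earlier results of these data known, so this share is a description.

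The members were long genes, yet most genes as long had few sites. Their median span was 128.3 kb against 36.6 kb for genes with fewer than 10 sites. Of 753 genes with a site and a span at or above 128.3 kb, 15 (1.99%) had 10 or more sites and 354 had 1. The members had 2.15 to 26.2 sites per 100 kb with a median of 9.61, and genes with 5 to 9 sites a median of 6.61. Neighbouring sites of a member lay 4130.5 bases apart in the median of 358 gaps. The smallest gap was 518 bases, in Syne1, the largest 215709 bases, in Kalrn, and 32 were under 1000 bases. On 19 of the 29 genes, at least 50% of the sites fell within the 20% of the span that held the most, with a range from 33.3% in Cep350 to 83.3% in Myh10. Placing the stretch at the most sites raises this share for any gene. It was not computed for genes with fewer sites, so it is not a trait particular to the members.

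Along the gene, a small share of member sites lay at the start. Positions were given as a percentage of the RefSeq gene span, introns included, from the 5′ end, for the 26 members whose strand the promoter table gives. Cep350 and Myh11 are not in it. Of the 343 sites placed, 19 (5.54%) lay in the first 10% of the span and 24 (7%) in the last 10%. A site across the 5′ end of Kalrn (fold 8.55) was not placed, because its middle lay upstream of the span. It is missing from the counts at the start. On genes with 1 site, 36.9% of the 2251 sites placed lay in the first 10% of the span, on genes with 2 sites 28.5%, with 3 to 4 sites 18.8% and with 5 to 9 sites 11.2%. The median position was 61.1% for member sites, 62% on genes with 5 to 9 sites and 34.8% on genes with 1, so the members stood with the genes of 5 to 9 sites. Members differed in this, with gene medians from 26.7% in Pcnt, 28.5% in Smarca2 and 32.7% in Smarca4 to 82.9% in Myh10. The sites of Erc1 all lay between 18.4% and 48.5%. The shares in the last 10% of the span ran from 14.3% on genes with 1 site to 10.4% with 5 to 9. Restricted to genes with a span over 80 kb, the first 10% of the span held 5.3% of member sites and 36.9% of sites of genes with 1 site. A low share of sites at the start goes with many sites elsewhere, and 15 of the 26 members did have a site in the first 10% of the span. The strongest site lay there in 2 members, Kif13a and Macf1, or 7.69%, against 25.3% of genes with 5 to 9 sites and 36.3% of genes with 2 to 4.

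**Figure D4:**
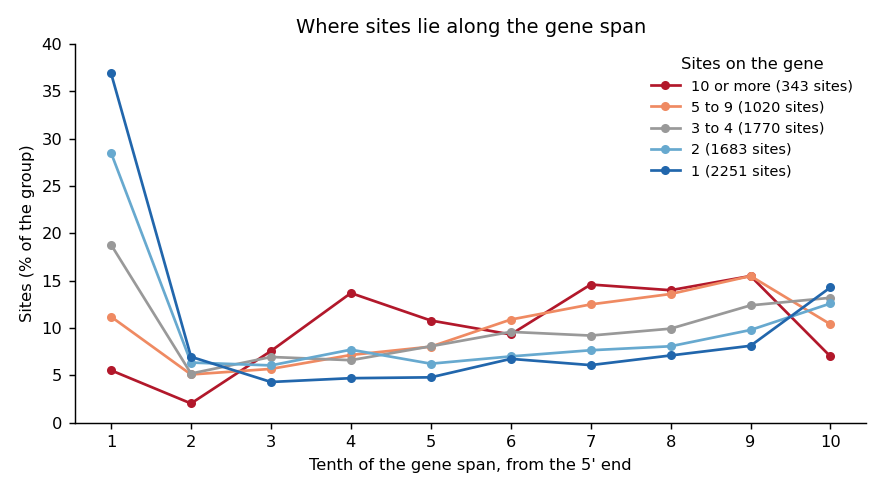
Share of sites in each 10% of the gene span from the 5′ end, for genes grouped by their number of sites; points are percentages of the sites placed in the group. The first 10% of the span holds 36.9% of sites on genes with 1 site and 5.54% of sites on genes with 10 or more.

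The caller numbered its peaks, and the numbers rise with position on every chromosome of the list, up to 90659. The list therefore shows how many peaks were numbered between the first and the last site of a gene, though those that are not in the list of mRNA sites were not analysed here. Across the 29 members 876 numbers were used and 387, or 44.2%, were listed, against 41.1% across genes with 5 to 9 sites. Myh14 had all 10 of its 10 numbers in the list, and Smarca4 and Dnmt1 had 10 of 11 each. At the other end were Kalrn with 13 of 101, Syne1 with 17 of 95 and Syne2 with 28 of 82.

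**Figure D5:**
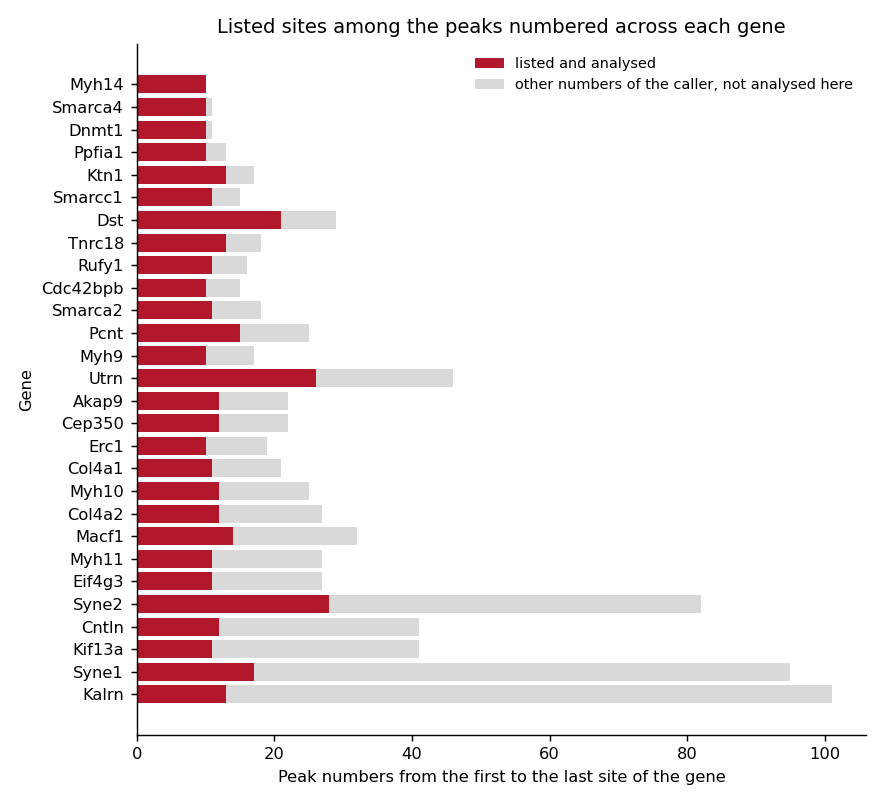
Number of peaks the caller numbered from the first to the last site of 28 member genes, split into those in the list (red) and others (grey). Myh14 has all 10 in the list, and Kalrn 13 of 101.

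Just inside the rule stood 7 genes with 10 sites, Myh9, Ppfia1, Erc1, Myh14, Cdc42bpb, Dnmt1 and Smarca4, with median folds from 6.58 to 14.875. Just outside stood 11 genes with 9 sites, 4930506M07Rik, App, Arid4a, Crocc, Eprs, Fam184a, Kif21a, Kif5c, Pde4dip, Tpr and Trio, with median folds from 6.07 (Eprs) to 11.8 (Kif5c). The strongest site among those 11 genes had a fold of 24.63, on Kif21a, a kinesin.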

How the data were processed

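RNA of islets from 2-week-old mice was sequenced as 1 immunoprecipitate and 1 input library. Per the labels' protocols, the authors aligned reads with HISAT2 and called sites with MACS. The submitters' processing notes give cutadapt 1.9.3, HISAT2 2.0.4 and build mm10, whereas the library protocol names human HG19. All 387 member sites overlapped their gene's span in RefSeq's GRCm38.p6, so positions are given in it. The deposited values are the score (minus 10 times log10 of the p-value), the fold ratio and the FDR in percent, per the file headers. None was recomputed. The files number the first base 0, and all coordinates printed here number it 1.

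Gene spans were matched by gene identifier, and strands came from the promoter table. Counts, medians, quartiles, rank correlations and shared lengths were computed with Python 3.11.15, pandas 2.3.3 and scipy 1.17.1, and the functions were tested on simulated data. No test was run, since each side has 1 library. Sites of a gene share its RNA and are not replicates.

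The counts cover all 29 members, and 28 are named; 1 is not reported here on its own. Values in full are given for the genes with the most sites, the largest and smallest top folds, the most and fewest sites per span, and the list members. The members and lists were chosen with earlier results of these data known. Relatives of members, the myosin and collagen results, the sharing of lengths and the terms of the deposited annotation were chosen after values were seen. Alternatives were stricter site limits, joined sites, other numbers of sites and gene identifiers.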

Additional observations from a re-analysis of the deposited data

How the results depend on the processing

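The number of members depends on the site limit, by construction, since stricter limits leave fewer sites. With a fold of at least 5 there were 18 genes with 229 sites, a median fold of 8.17 and a median length of 175 bases. With a p of at most 1e-10 there were 12 genes with 151 sites, a median fold of 8.24, a median length of 175 bases and 47.68% of sites with an FDR below 100%. With an FDR below 100% alone, 2 genes (Dst and Utrn) with 24 sites and a median length of 185.5 bases were left. All 18, 12 and 2 genes were among the 29. With 8 or more sites as the limit there were 52 genes with 582 sites, and with 12 or more 15 genes with 240 sites. Of 46 values under alternatives, 16 moved, all given here. The other 30 stayed within 1.5 times for counts, and within the 95% binomial interval of the median or share otherwise. That interval counts every site as independent, though sites of a gene share its RNA. It served only as a limit for calling a value moved, and is not an error of the value. Joining sites closer than 1000 bases left 23 genes with 306 sites. Joining those closer than 100 bases, counting by gene identifier and the overlap with the gene span left 29 genes with 387 sites. The smallest gap between member sites was 518 bases, and all 387 sites overlapped their span. Joining at 100 bases and the overlap could therefore not change the members, and their unchanged values are among the 30. The alternatives by gene identifier, gene span over 80 kb and without the myosins were chosen after seeing the data. Read depth is unknown and limits every fold. No paired analysis was possible because each group has 1 library.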

Other observations

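The authors' deposited annotation gives a further description of the members. Of the 29 genes, 9 carried the term actin binding (Dst, Macf1, Myh10, Myh11, Myh14, Myh9, Syne1, Syne2 and Utrn), or 31%, and 2.96% of all genes with a site carried it. Calmodulin binding was given to 5, the 4 myosins and Pcnt, beside 1.27%. Microtubule binding was given to 3, Dst, Kif13a and Macf1, or 10.3%, beside 1.71%. Other terms stood near the list, metal ion binding with 20.7% beside 18.3%, DNA binding with 13.8% beside 11.5% and poly(A) RNA binding with 10.3% beside 11%. The broad term protein binding was given to 69% of the members and 31.7% of all genes with a site. The terms named were picked out after their counts were seen, and no test was made.

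Members also differed in how many transcript records their sites were assigned to. On 10 genes all sites were assigned to 1 transcript, and on 19 to 2 or more. RefSeq records took 92.8% of the member sites and 81.6% of all sites.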
